A study of Mus musculus with 9 samples.

Results

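The genes described here are 36 mouse genes of excitation-contraction coupling and calcium handling. They were taken by symbol, for their known roles in skeletal muscle, from the 45706 genes of the deposited table, and each symbol was found. In a muscle fibre the action potential runs along the surface membrane and into its transverse tubules, where a voltage sensor related to the L-type calcium channel touches the calcium release channel of the sarcoplasmic reticulum. The contact between tubule and store is the triad. Released calcium binds the thin filaments and starts contraction, and pumps return it to the store, where proteins of the lumen hold it. Cells without triads release stored calcium mainly through inositol trisphosphate (IP3) receptors, and both kinds of cell refill an empty store through store-operated entry.

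The RNA came from muscle stem cells (satellite cells) of wild-type C57Bl6 mice aged 12 to 20 weeks. Freshly isolated cells were compared with cells kept at least 3 days in proliferation medium, which held 20% serum and 2.5 ng/ml human FGF-2, and with myotubes made by a further 6 days in 2% horse serum. The labels name no transgene or deletion in any group, and each group had 3 samples from different animals. The p-values rest on the spread between samples within a stage, pooled over the 3 stages. In the cultured stages, differences between animals and between cultures cannot be told apart in this spread. These samples are called fresh, proliferating and myotube libraries 1 to 3, and the number is only a name.

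Total RNA was sequenced after removal of ribosomal RNA. Values are normalized read counts, made comparable between libraries and rounded by the authors. They summed to 20.1 to 26.2 M in fresh, 17.8 to 18.2 M in proliferating and 19.5 to 20.8 M in myotube libraries, from an estimated 12.0 to 19.4, 20.4 to 24.3 and 22.0 to 22.8 M reads in genes. Markers of satellite cells (7 genes) summed to 48263 to 54421 in fresh, 5399 to 6566 in proliferating and 3916 to 4408 in myotube libraries. Markers of adult myofibres (12 genes) summed to 4730 to 4857, 14244 to 26026 and 305308 to 433018 in the same order, and those of dividing cells (6 genes) to 133 to 745, 45175 to 49844 and 14189 to 23642. The myotube libraries thus still held transcripts of dividing cells. The sums of fibroblast, leukocyte and endothelial markers were also highest in fresh libraries, while those of smooth muscle (9 genes) and of Schwann or neuronal cells (7 genes) were highest in myotube libraries. The 7 fibroblast or fibro-adipogenic markers summed to 3291 to 4651 in fresh, 43 to 54 in proliferating and 662 to 860 in myotube libraries, and Dpt and Cxcl14 among them were at 0 in all proliferating libraries. The 6 leukocyte markers summed to 662 to 689, 65 to 89 and 246 to 260 in the same order, with Adgre1 at 0 in all fresh and proliferating libraries, and the 6 endothelial markers to 105 to 227, 54 to 98 and 20 to 28, with Emcn at 0 in all proliferating and myotube libraries. Dpt (2449, 3554 and 3249) and Cd68 (549, 629 and 621) held most of the fresh fibroblast and leukocyte sums. Not all markers followed their sums. Pdgfra had 4, 5 and 9 counts in fresh and 19, 13 and 22 in proliferating libraries, and Kdr 22, 18 and 18 and 52, 16 and 26. Col1a1 (834, 631 and 658) and Itgam (223, 213 and 229) were highest in myotube libraries. In such bulk samples fewer cells of a type and less RNA per cell cannot be told apart. Levels compared between genes are divided by the length of the exons of each gene (per kb), positions are on GRCm38, and changes are on the log2(value + 1) scale, with their SE. Folds come from these log2 changes. A change was called at a limma adjusted p below 0.05, with Benjamini-Hochberg adjustment over the 17291 genes that reached 10 in 3 libraries or more. All 36 genes passed that filter, 26 of them in all 9 libraries. Ryr2, Trdn and Sln reached it in every library of only 1 stage, fresh for Ryr2 and myotubes for Trdn and Sln. A gene that passes through its high stage alone is favoured to differ there.

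Most of the genes were highest in myotubes, and the 3 IP3 receptor genes were lowest there. Against proliferating cells, myotubes had higher levels of 29 of the 36 genes and lower levels of 3, while 28.6% of all tested genes were called higher and 25.5% lower (54.1% in either direction). The median log2 change was 2.49 over the 36 genes and 0.04 over all tested genes. For 30 genes all myotube libraries lay above all proliferating libraries, as for 37.3% of all tested genes, and for 5 genes they lay below them, as for 33.5%. The non-coding RNA gene Gm26917 held 22.2%, 10.6% and 11.2% of the total in fresh libraries 1 to 3. Its share was 8.5% to 11.0% in proliferating and 2.9% to 3.4% in myotube libraries, so it differed between stages. When the values were scaled to equal totals without Gm26917, 29 genes were called higher and 5 lower. That scaling turned the counts over all genes to 3665 higher and 5707 lower, against 4951 and 4402 as deposited, and moved the median of all genes to -0.22.

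Proliferating cells differed from fresh cells in both directions. Of the 36 genes, 18 were called higher and 12 lower in proliferating cells, while 37.6% of all tested genes were called higher and 35.7% lower (73.3% in either direction). The median log2 change was 0.94, against 0.07 over all tested genes. All proliferating libraries lay above all fresh libraries for 14 genes (37.7% of all tested genes) and below them for 12 (36.3%). Without fresh library 1 and proliferating library 1, which had been named as standing apart in earlier results, 23 genes were called higher and 12 lower, with Jsrp1, Atp2a1, Atp2a2, Tmem38a and Orai1 added. Scaling to totals without Gm26917 gave 22 and 11, with Atp2a1, Atp2a2, Tmem38a and Orai1 added and Jph1 lost, and put the median of all genes at 0.28.

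In myotubes against fresh cells 31 genes were called higher and 4 lower, while 40.2% of all tested genes were called higher and 37.3% lower. The median log2 change was 3.57, against 0.10 over all tested genes. The libraries lay apart in the same numbers of genes, 31 above (40.7% of all tested genes) and 4 below (38.0%, or 78.7% in either direction). The 3 comparisons share libraries pairwise, so their results are not independent of each other.

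**Figure D1:**
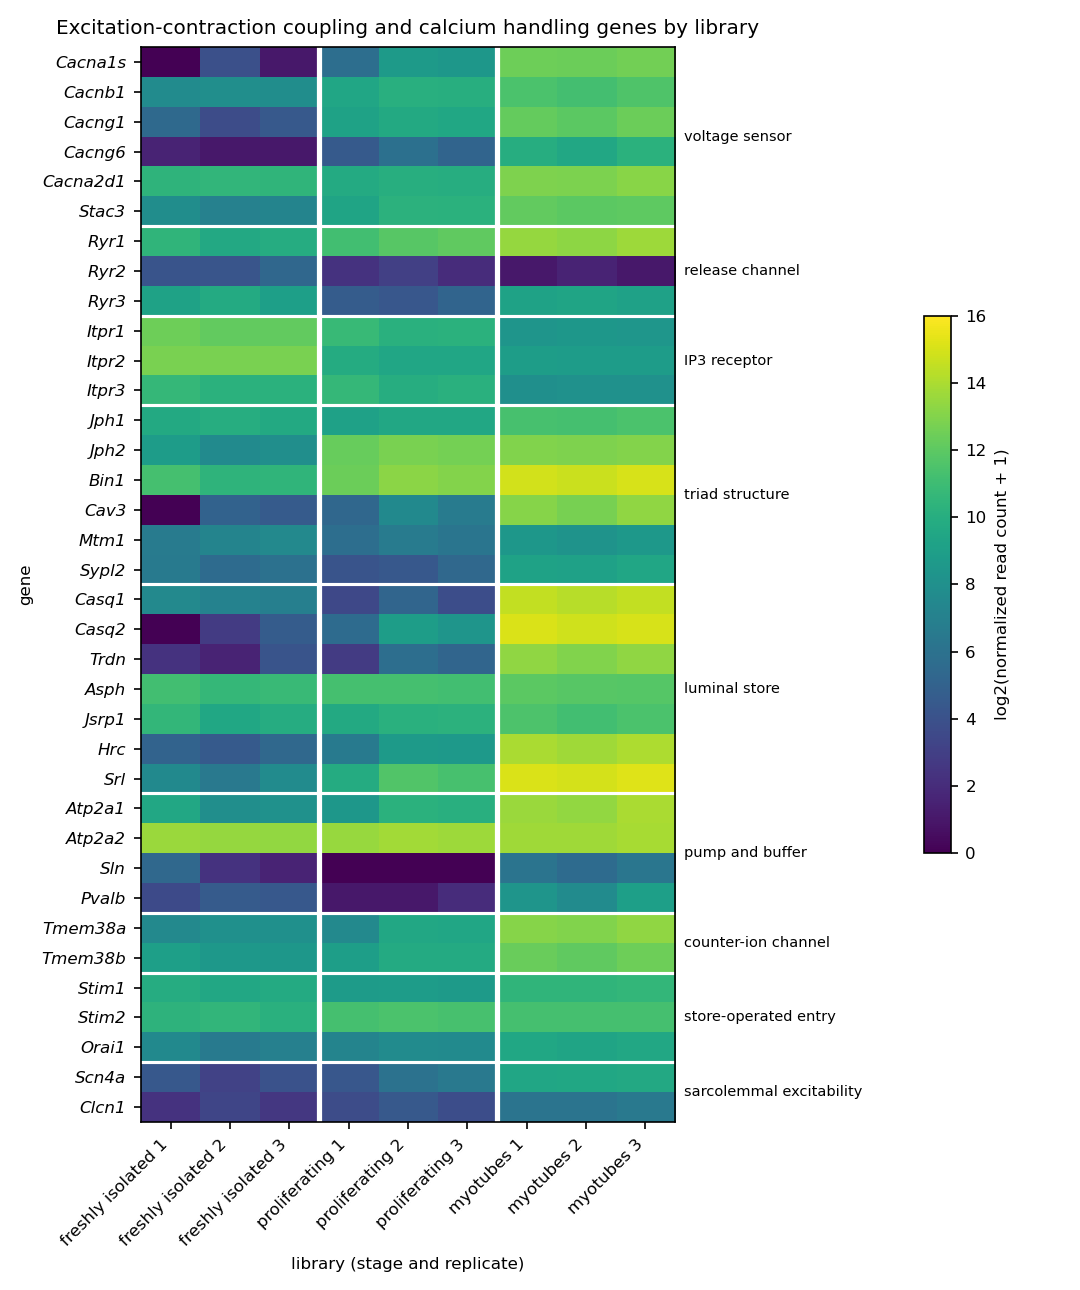
Normalized read counts of the 36 genes on the log2(value + 1) scale, as colour, with 1 row per gene grouped by role and 1 column per library in the order fresh, proliferating, myotubes. Casq1, Casq2, Trdn, Hrc and Srl reach their highest values in the myotube columns, and Itpr1 and Itpr2 in the fresh columns.

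The order of levels within a stage differed between the stages. Per kb of exon, Atp2a2, the widely used calcium pump of the store, was the highest of the 36 genes in fresh cells (1890 ± 104 per kb, SD, n = 3) and in proliferating cells (2105 ± 155 per kb), and the tenth-ranking gene in myotubes (2287 ± 163 per kb). In fresh cells it was followed by Jsrp1 (811 ± 298 per kb) and Itpr2 (481 ± 0.407 per kb), whose libraries lay apart from those of Jsrp1. In proliferating cells Bin1 (1862 ± 501 per kb) and Jph2 (1453 ± 246 per kb) followed, and the libraries of Bin1 overlapped those of both its neighbours in this order. In myotubes Casq2 (11893 ± 1159 per kb) and Casq1 (11479 ± 1116 per kb) led, with overlapping libraries, and lay apart from the next gene, Cav3 (7438 ± 1575 per kb). Cav3, Bin1 (7419 ± 765 per kb), Srl (6563 ± 512 per kb) and Hrc (6031 ± 652 per kb) followed with each overlapping the next. The lowest in myotubes was Ryr2, the cardiac release channel, at 0.0463 ± 0.0201 per kb.

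Promoter sequence is shown for the genes with the largest rise in myotubes against proliferating cells among those whose RefSeq promoter held the E-box CAGCTG, a site class that myogenic factors such as MyoD are known to bind. Of the 36 genes, 23 had a RefSeq promoter on GRCm38.p6. The 250 bases before the start were searched on both strands, which are identical for this palindrome. CAGCTG was found in 8 of the 23 genes (34.8%), and in 15.2% of 11050 tested genes and 14.7% of all 27025 genes with a window. The E-box lay 195 bases before the start in Casq1, 106 in Cav3, 22 in Hrc and 123 in Cacna1s. It lay 239 bases before the start in Sypl2, 55 in Atp2a1 and 246 in Orai1. Jph2 had 1 CAGCTG, which lay 29 bases before 1 of its RefSeq starts and 9 bases before the other. The MEF2 motif, searched on both strands and overlapping no CAGCTG, was found 69 bases before the start in Casq2, 180 in Pvalb and 51 in Clcn1, which is 13.0% of the 23 genes, and in 2.24% of tested genes and 3.42% of all genes. A match describes the letters and does not show binding. The windows run 5′ to 3′ on the strand of the gene, with CAGCTG in capitals: Casq1 on the minus strand at chr1:172219896-172220145, Cav3 on the plus strand at chr6:112459255-112459504, Hrc on the plus strand at chr7:45335019-45335268, and Cacna1s on the plus strand at chr1:136052561-136052749, where the last is 189 bases long because it ends before the GENCODE start of the gene, while the distances above count from the RefSeq start.
Casq1: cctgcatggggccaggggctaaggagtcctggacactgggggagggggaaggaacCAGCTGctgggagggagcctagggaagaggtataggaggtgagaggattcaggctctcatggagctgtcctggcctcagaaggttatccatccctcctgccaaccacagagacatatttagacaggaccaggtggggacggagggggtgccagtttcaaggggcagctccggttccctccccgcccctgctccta
Cav3: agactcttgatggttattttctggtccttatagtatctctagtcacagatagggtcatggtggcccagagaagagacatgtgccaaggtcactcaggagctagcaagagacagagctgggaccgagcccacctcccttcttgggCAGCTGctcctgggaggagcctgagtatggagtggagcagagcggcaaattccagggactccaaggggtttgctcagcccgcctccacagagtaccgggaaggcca
Hrc: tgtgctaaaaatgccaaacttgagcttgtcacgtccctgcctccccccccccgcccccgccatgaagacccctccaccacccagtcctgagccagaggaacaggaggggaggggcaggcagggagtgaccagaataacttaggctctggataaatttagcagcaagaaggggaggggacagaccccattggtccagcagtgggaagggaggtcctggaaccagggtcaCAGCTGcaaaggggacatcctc
Cacna1s: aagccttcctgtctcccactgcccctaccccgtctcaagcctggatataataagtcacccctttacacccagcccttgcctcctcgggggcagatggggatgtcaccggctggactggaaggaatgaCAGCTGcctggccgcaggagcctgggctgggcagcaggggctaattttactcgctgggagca

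The voltage sensor and its partners were higher in myotubes than in either earlier stage, with all 6 genes called higher in both comparisons, against 28.6% of all tested genes in myotubes over proliferating and 40.2% in myotubes over fresh cells. Cacna1s, the pore subunit that senses the voltage (chromosome 1, 136052750 to 136119822), had 0, 14 and 1 counts in fresh, 53, 419 and 358 in proliferating and 5581, 5387 and 6217 in myotube libraries. No libraries of different stages overlapped, and proliferating library 1 lay far below the other proliferating libraries. The log2 change of Cacna1s was 4.83 ± 0.97 in myotubes against proliferating cells (limma, adjusted p = 0.00183) and 6.02 ± 0.97 in proliferating against fresh cells (limma, adjusted p = 2.52e-04), a change from values near the limit of 3 reads in fresh libraries, so no fold is given. Leaving out single libraries moved the first of these between 3.88 without proliferating library 1 and 5.36 without library 2, and the second between 5.20 without fresh library 1 and 7.15 without fresh library 2. Against fresh cells the log2 change in myotubes was 10.85 ± 0.97, with 10.03 and 11.98 without the same fresh libraries. The antisense gene Gm37759 shares 20.0% of the exon bases of Cacna1s, and its mean over the libraries was 9.6, against 2003 for Cacna1s. Whether the counting used strand is not stated, so reads of genes that overlap on opposite strands may be mixed.

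The auxiliary subunits did not move as one. Cacng1, the gamma subunit of the muscle channel, had 44, 12 and 21 counts in fresh, 601, 835 and 745 in proliferating and 4820, 3975 and 5512 in myotube libraries. It was 30.8-fold higher in proliferating than in fresh cells (log2 change 4.94 ± 0.36, limma adjusted p = 8.30e-07) and 6.55-fold higher in myotubes than in proliferating cells. Cacng6, a related gamma subunit, had 2, 1 and 1 counts in fresh, 22, 59 and 34 in proliferating and 987, 780 and 1215 in myotube libraries, and was 26.9-fold higher in myotubes than in proliferating cells. The beta subunit Cacnb1, needed to bring the channel to the membrane, was 4.10-fold higher in proliferating than in fresh cells (942 ± 212 against 225 ± 15.6, SD, n = 3 each) and 3.01-fold higher in myotubes (2798 ± 342) than in proliferating cells. Cacna2d1, the alpha2delta subunit, went the other way at the first step. It had 1344, 1497 and 1386 counts in fresh, 895, 1060 and 1012 in proliferating and 7683, 7408 and 9018 in myotube libraries. The proliferating libraries thus lay below all fresh libraries (log2 change -0.51 ± 0.10, limma adjusted p = 0.00119), and the myotube libraries 8.11-fold above the proliferating ones. Stac3, an adaptor that links the voltage sensor to its targeting and function, was 5.98-fold higher in proliferating than in fresh cells (1032 ± 332 against 170 ± 55.0) and 4.29-fold higher in myotubes (4256 ± 210) than in proliferating cells.

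The release channel genes Ryr1 and Ryr3 did not change alike between stages. Ryr1, the ryanodine receptor of skeletal muscle (chromosome 7, 29003344 to 29125179), had 1388, 813 and 948 counts in fresh, 2296, 3719 and 4413 in proliferating and 11292, 10053 and 12865 in myotube libraries, with no overlap between stages. It was 3.28-fold higher in proliferating than in fresh cells (log2 change 1.71 ± 0.25, limma adjusted p = 1.21e-04) and 3.38-fold higher in myotubes than in proliferating cells (1.76 ± 0.25, limma adjusted p = 1.89e-04). Ryr3, a ryanodine receptor of developing muscle (chromosome 2, 112631355 to 113217096), had 604, 874 and 523 counts in fresh, 24, 19 and 35 in proliferating and 589, 641 and 580 in myotube libraries. It fell 24.9-fold in proliferating against fresh cells (log2 change -4.64 ± 0.25, limma adjusted p = 8.27e-08) and was 23.0-fold higher in myotubes than in proliferating cells (4.53 ± 0.25, limma adjusted p = 8.89e-07). Its myotube and fresh libraries overlapped (log2 change -0.11 ± 0.25, limma adjusted p = 0.693, with changes of -0.27 to 0.10 when single libraries were left out). The opposite-strand gene Aven shares 4.8% of the exon bases of Ryr3, with a mean of 328.4 over the libraries against 432.1 for Ryr3. The sums of fibroblast, leukocyte and endothelial markers were also lower in proliferating than in fresh libraries, though not every marker was, as given above. The part of such transcripts in the fall of Ryr3 was not tested.

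Ryr2, the release channel of heart muscle (chromosome 13, 11553102 to 12106945), was low at every stage, with 17, 18 and 40 counts in fresh, 4, 7 and 3 in proliferating and 1, 2 and 1 in myotube libraries. It fell 4.44-fold in proliferating against fresh cells (log2 change -2.15 ± 0.48, limma adjusted p = 0.00227). Ryr2 passed the filter only through its fresh libraries, which favours such a fall, so this p is no independent support for it. In myotubes the values were below the limit of 3 reads and the change against proliferating cells was not called (limma, adjusted p = 0.0503), although all myotube libraries lay below all proliferating libraries, and other settings gave an adjusted p on the other side of the threshold. Its highest fresh value was in library 3. Among fresh libraries, that library also had the most counts of 7 cardiac markers, 687, against 98 in fresh library 1 and 118 in fresh library 2. Of the 687 counts, 375 were of Myh6, the cardiac myosin, against 0 and 29. Another 168 were of Tnnt2, which is also in the list of differentiating muscle markers. The 7 markers summed to 2207 to 4321 in proliferating and 39526 to 56716 in myotube libraries, where nearly all counts were of Tnnt2. Fresh library 3 had 24 counts of Casq2 and 17 of Trdn, the highest fresh values of both genes. The part of cardiac transcripts in these values was not tested.

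All 3 IP3 receptor genes were lower in myotubes than in fresh and in proliferating cells, where 37.3% and 25.5% of all tested genes were called lower. Itpr2 (chromosome 6, 146108299 to 146502223) had 7109, 7121 and 7116 counts in fresh, 934, 698 and 702 in proliferating and 472, 468 and 459 in myotube libraries. It fell 9.22-fold in proliferating against fresh cells (log2 change -3.21 ± 0.11, limma adjusted p = 6.24e-09) and 1.65-fold in myotubes against proliferating cells (-0.72 ± 0.11, limma adjusted p = 3.93e-04). Itpr1 (chromosome 6, 108213096 to 108551109) had 5778, 4526 and 4539 counts in fresh, 1732, 1144 and 1183 in proliferating and 327, 358 and 344 in myotube libraries. It was 3.70-fold lower in proliferating than in fresh cells and 3.87-fold lower in myotubes than in proliferating cells (log2 changes -1.89 ± 0.16 and -1.95 ± 0.16). Itpr3 (chromosome 17, 27057304 to 27122223) had 1614, 1179 and 1200 counts in fresh, 1585, 1010 and 1140 in proliferating and 248, 267 and 267 in myotube libraries. Its proliferating and fresh libraries overlapped (log2 change -0.11 ± 0.18, limma adjusted p = 0.595, and above 0 without fresh library 1, without proliferating library 2 or with totals without Gm26917), and it fell 4.68-fold in myotubes against proliferating cells (limma, adjusted p = 4.82e-06). Proliferating library 1 held the highest proliferating value of each IP3 receptor gene. The part of the fibroblast, leukocyte and endothelial transcripts of fresh libraries in the falls of Itpr1 and Itpr2 was not tested.

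Summed per kb, the 2 families of release channels had opposite orders across the stages. The ryanodine receptor genes summed to 84.1 ± 11.8 per kb in fresh, 161 ± 49.6 in proliferating and 554 ± 63.0 in myotube libraries (SD, n = 3 each). The IP3 receptor genes summed to 898 ± 66.1, 264 ± 60.3 and 79.1 ± 1.78 per kb in the same stages. The share of ryanodine receptors in the sum of both was 8.96%, 8.90% and 7.75% in fresh, 24.2%, 43.6% and 46.1% in proliferating and 87.7%, 86.0% and 88.6% in myotube libraries. No libraries of different stages overlapped in this share, and proliferating library 1 stood apart at the low end of its stage.

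**Figure D2:**
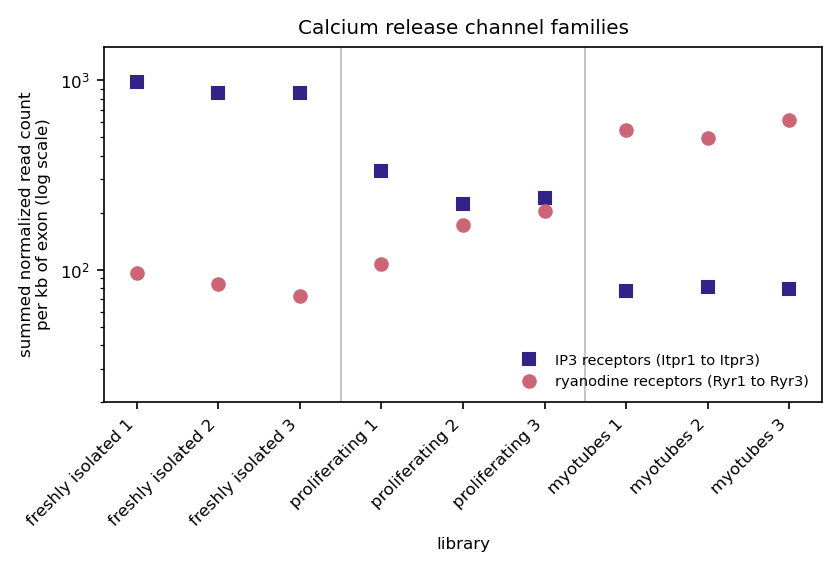
Summed normalized read counts per kb of exon (log axis) of the 3 ryanodine receptor genes and the 3 IP3 receptor genes in each of the 9 libraries. IP3 receptor transcripts are above ryanodine receptor transcripts in the fresh and proliferating libraries and below them in the myotube libraries.

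Within families the shares of the paralogues differed between stages. Shares were tested with an exact two-sided permutation test, whose smallest p for 3 against 3 libraries is 0.1, so that no single test could pass 0.05. Over the 21 tests the Benjamini-Hochberg adjusted p was 0.117 for each of the 18 comparisons without overlap. Ryr1 made up 56.9% ± 11.3 of the ryanodine receptor level per kb in fresh, 99% ± 0.299 in proliferating and 94.2% ± 0.965 in myotube libraries, and Ryr3 42% ± 11.4, 0.892% ± 0.302 and 5.81% ± 0.960. Among IP3 receptors Itpr2 led in fresh cells with 53.7% ± 3.83, while Itpr3 led in proliferating cells with 52.1% ± 1.35. In myotubes the shares of Itpr2, Itpr3 and Itpr1 were 39.8%, 36.5% and 23.7%.

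**Figure D3:**
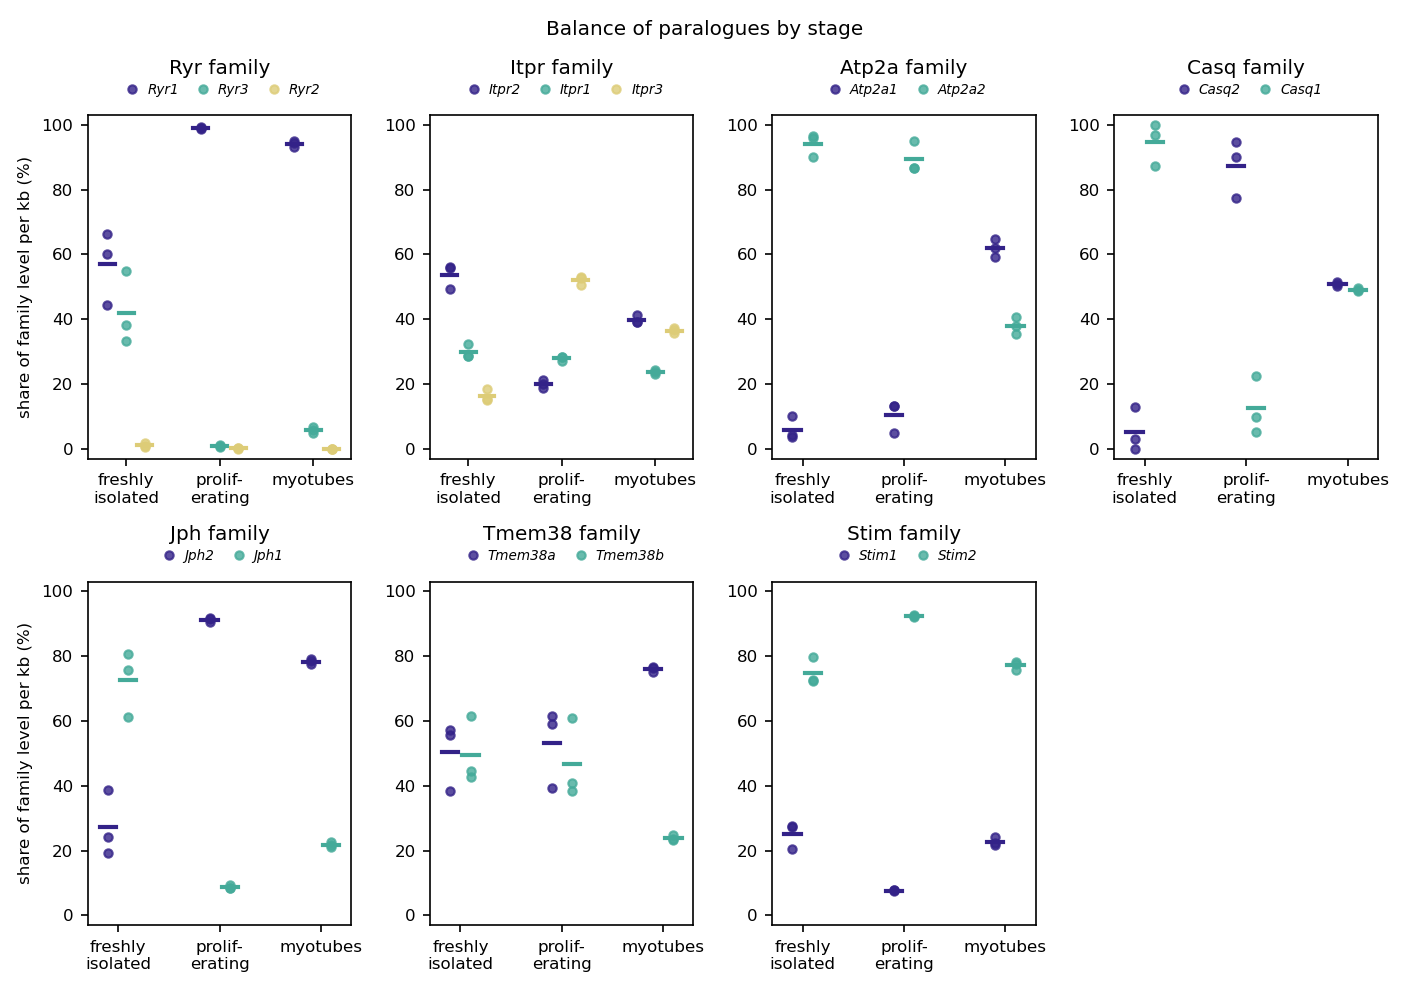
Share of each paralogue in the summed level per kb of exon of its family, in percent, for 7 gene families at the 3 stages. Points are libraries and bars are means of 3. Ryr1 and Jph2 take over 90% of their families in proliferating cells, and Casq1 and Casq2 have nearly equal shares in myotubes.

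Genes that shape the triad and the transverse tubules had their lowest levels at different stages. Of 6 such genes, 3 were called higher and 3 lower in proliferating against fresh cells, close to the even split of all tested genes (37.6% and 35.7%), and 5 were called higher in myotubes against proliferating cells (28.6% of all tested genes). Jph2, a junctophilin that ties the tubule to the store (chromosome 2, 163336242 to 163397993), had 449, 200 and 234 counts in fresh, 5062, 7135 and 6346 in proliferating and 8175, 7735 and 8316 in myotube libraries. It was 22.1-fold higher in proliferating than in fresh cells (log2 change 4.47 ± 0.25, limma adjusted p = 1.34e-07). In myotubes all libraries lay above the proliferating ones, but the change was 0.40 ± 0.25 and was not called (limma, adjusted p = 0.212). The change was called without fresh library 1 (limma, adjusted p = 0.0123). Proliferating libraries held 62.7%, 88.4% and 78.6% of the mean myotube level of Jph2.

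Jph1, the other junctophilin of muscle, had 837, 982 and 858 counts in fresh, 558, 760 and 772 in proliferating and 2551, 2499 and 2838 in myotube libraries. It was 3.8-fold higher in myotubes than in proliferating cells (limma, adjusted p = 2.62e-06). The fall in proliferating against fresh cells (log2 change -0.37 ± 0.13, limma adjusted p = 0.0303) was not called without fresh library 2 (limma, adjusted p = 0.0983) without proliferating library 1 (0.104) or with totals without Gm26917 (0.370). Jph2 accordingly made up 27.4% of the junctophilin level per kb in fresh, 91.2% in proliferating and 78.3% in myotube libraries.

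Bin1, which bends membrane into tubules, was 4.41-fold higher in proliferating than in fresh cells (7668 ± 2063 against 1759 ± 624) and 4.08-fold higher in myotubes (30543 ± 3150) than in proliferating cells. Cav3, the muscle caveolin of the surface membrane and tubules (chromosome 6, 112459505 to 112472872), had 0, 31 and 23 counts in fresh, 40, 195 and 99 in proliferating and 8794, 6696 and 10326 in myotube libraries. It was 91.1-fold higher in myotubes than in proliferating cells (log2 change 6.51 ± 1.11, limma adjusted p = 6.58e-04), with 5.92 without proliferating library 1 and 7.05 without library 2. In proliferating against fresh cells its log2 change was 3.34 ± 1.11 (limma, adjusted p = 0.0197), between 1.75 without fresh library 1 and 4.25 without fresh library 2. That call was lost without proliferating library 2 (limma, adjusted p = 0.0748) or library 3 (0.0518). Against fresh cells the log2 change in myotubes was 9.85 ± 1.11, with 8.26 and 10.76 without fresh library 1 or 2.

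Mtm1, a lipid phosphatase needed to keep triads in order, and Sypl2, a membrane protein of the triad also called mitsugumin, were lower in proliferating than in fresh cells and higher in myotubes than in both. Mtm1 had 102, 151 and 186 counts in fresh, 53, 100 and 74 in proliferating and 352, 299 and 372 in myotube libraries. Sypl2 had 94, 47 and 62 counts in fresh, 17, 20 and 41 in proliferating and 600, 568 and 701 in myotube libraries. The log2 changes in proliferating against fresh cells were -0.95 ± 0.28 for Mtm1 and -1.39 ± 0.35 for Sypl2, and those in myotubes against proliferating cells 2.20 ± 0.28 and 4.63 ± 0.35.

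The proteins that hold calcium inside the store and anchor them to the release channel included the largest rises, with all 7 genes called higher in myotubes than in proliferating cells, against 28.6% of all tested genes. Casq1, the calsequestrin of fast skeletal fibres (chromosome 1, 172209894 to 172219868), had 183, 137 and 117 counts in fresh, 10, 37 and 13 in proliferating and 23549, 19884 and 23755 in myotube libraries. It fell 8-fold in proliferating against fresh cells (log2 change -3.0 ± 0.38, limma adjusted p = 4.77e-05) and was 1239-fold higher in myotubes than in proliferating cells (10.27 ± 0.38, limma adjusted p = 1.84e-07). This was the largest log2 change of the 36 genes in that comparison. Its promoter is the first of those printed above.

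Casq2, the calsequestrin of cardiac and slow muscle (chromosome 3, 102086415 to 102146514), had 0, 6 and 24 counts in fresh, 48, 469 and 324 in proliferating and 34945, 28945 and 33727 in myotube libraries. It went the other way from Casq1 at the first step, with a log2 change of 5.13 ± 1.08 in proliferating against fresh cells (limma, adjusted p = 0.00151), and 3.89 without fresh library 1 or 6.21 without fresh library 3. In myotubes it was 166-fold higher than in proliferating cells (log2 change 7.37 ± 1.08, limma adjusted p = 2.34e-04), with 6.37 without proliferating library 1 and 8.01 without library 2. Against fresh cells the log2 change was 12.50 ± 1.08, with 11.26 and 13.58 without fresh library 1 or 3. Casq2 made up 5.26% of the calsequestrin level per kb in fresh, 87.4% in proliferating and 50.9% in myotube libraries. Both calsequestrins together came to 78.3 ± 13.5 per kb in fresh, 113 ± 84.5 in proliferating and 23372 ± 2259 in myotube libraries.

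Trdn encodes triadin, which links calsequestrin to the release channel. It had 4, 2 and 17 counts in fresh, 6, 53 and 36 in proliferating and 10363, 8055 and 10544 in myotube libraries, and was 398-fold higher in myotubes than in proliferating cells (log2 change 8.64 ± 0.78, limma adjusted p = 9.94e-06). Without proliferating library 1 or 2 that change was 7.74 or 9.22. Against fresh cells it was 10.53 ± 0.78 in myotubes, between 9.98 without fresh library 2 and 11.27 without fresh library 3. Proliferating and fresh libraries overlapped, and the call between them (log2 change 1.90 ± 0.78, limma adjusted p = 0.0472) was lost without any 1 of the libraries except fresh library 3 and proliferating library 1, with log2 changes between 1.32 without proliferating library 2 and 2.79 without proliferating library 1.

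Hrc, a histidine-rich calcium-binding protein of the lumen, had 33, 22 and 42 counts in fresh, 93, 414 and 409 in proliferating and 16159, 13568 and 16697 in myotube libraries. It was 61.2-fold higher in myotubes than in proliferating cells (log2 change 5.93 ± 0.49, with 5.22 without proliferating library 1 and 6.29 without library 2) and 7.81-fold higher in proliferating than in fresh cells (2.96 ± 0.49, with 3.68 and 2.60 without the same libraries). Srl encodes sarcalumenin, a calcium-binding glycoprotein of the store, and had 190, 87 and 207 counts in fresh, 934, 3192 and 2558 in proliferating and 34259, 32635 and 37951 in myotube libraries. It was 13.0-fold higher in proliferating than in fresh cells and 17.7-fold higher in myotubes than in proliferating cells.

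Jsrp1 and Asph changed least in this role. Jsrp1, a triad protein also called JP-45, had 1523, 755 and 967 counts in fresh, 832, 1165 and 1228 in proliferating and 2957, 2241 and 2848 in myotube libraries. It was 2.51-fold higher in myotubes than in proliferating cells (limma, adjusted p = 0.00103). Its proliferating and fresh libraries overlapped, and the sign of their difference depended on single libraries (log2 change 0.03 ± 0.24, from -0.20 without fresh library 2 to 0.31 without fresh library 1). Asph gives rise to a hydroxylase and to the store proteins junctin and junctate, which gene counts do not separate, and Clvs1 on the opposite strand shares 14.3% of its exon bases. Asph was 1.56-fold higher in myotubes (3778 ± 217) than in proliferating cells (2417 ± 126). Its call in proliferating against fresh cells (1931 ± 344; log2 change 0.34 ± 0.12, limma adjusted p = 0.0286) came with overlapping libraries and was lost without fresh library 2 (limma, adjusted p = 0.105), fresh library 3 (0.0752), proliferating library 1 (0.0681) or proliferating library 2 (0.0856).

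**Figure D4:**
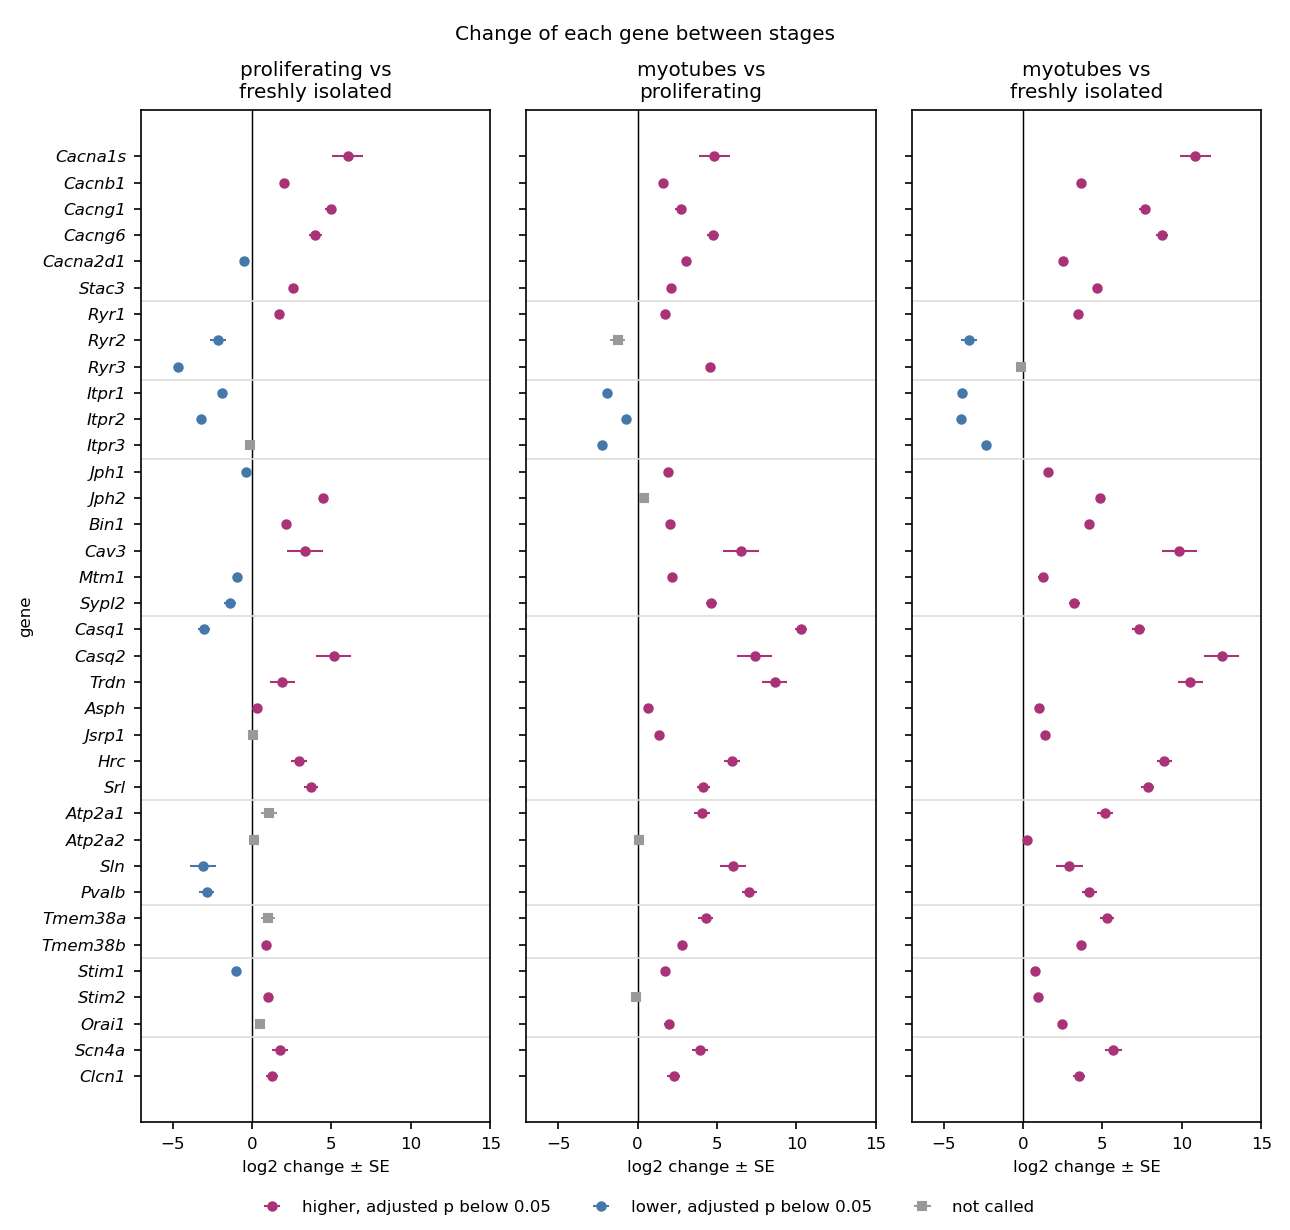
Log2 changes of the 36 genes, with SE bars from the limma model, for each of the 3 comparisons. The largest rise in myotubes against proliferating cells is that of Casq1 (10.27), and the 3 IP3 receptor genes lie below 0.

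The 2 calcium pump genes differed in how they changed. Atp2a2, the pump SERCA2 (chromosome 5, 122453513 to 122502225), had 12140, 11458 and 10880 counts in fresh, 11905, 13781 and 12720 in proliferating and 13303, 13366 and 15055 in myotube libraries. Neighbouring stages overlapped, and neither step was called (log2 changes 0.15 ± 0.09 and 0.12 ± 0.09, limma adjusted p = 0.164 and 0.313). The sign of the change in myotubes against proliferating cells turned under other scalings, to -0.16 with totals without Gm26917 and to -0.20 with quantile normalization. In myotubes against fresh cells it was 1.21-fold higher (limma, adjusted p = 0.0219), a call lost without fresh library 3 (0.0777) or myotube library 3 (0.0906).

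Atp2a1, the pump SERCA1 of fast fibres (chromosome 7, 126445858 to 126463108), had 773, 239 and 269 counts in fresh, 347, 1213 and 1102 in proliferating and 12480, 11092 and 15773 in myotube libraries. It was 16.7-fold higher in myotubes than in proliferating cells (log2 change 4.06 ± 0.51, limma adjusted p = 8.93e-05). Proliferating and fresh libraries overlapped and their difference was not called (1.07 ± 0.51, limma adjusted p = 0.0833), but it was without fresh library 1 (1.61, limma adjusted p = 0.00539) or without proliferating library 1 (1.65, limma adjusted p = 0.00733). Atp2a1 made up 5.89% of the pump level per kb in fresh, 10.4% in proliferating and 62.0% in myotube libraries, and the summed pump level was 2013 ± 184, 2360 ± 282 and 6059 ± 848 per kb. Rabep2 on the opposite strand shares 21.9% of the exon bases of Atp2a1, with a mean of 318.7 over the libraries against 4809.8 for Atp2a1.

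Sarcolipin and parvalbumin were near or at 0 in proliferating cells. Sln, the small peptide that inhibits the pumps (chromosome 9, 53850164 to 53854560), had 41, 4 and 2 counts in fresh libraries, was at 0 in all 3 proliferating libraries and had 70, 48 and 78 counts in myotube libraries. Against a limit of 3 reads per proliferating library, a mean of 2.43, it was at least 26.9-fold higher in myotubes and at least 6.46-fold lower in proliferating than in fresh cells, a bound that rests on fresh library 1. In myotubes against fresh cells the log2 change was 2.92 ± 0.83 (limma, adjusted p = 0.00797), between 2.17 without fresh library 3 and 4.07 without fresh library 1. Without the same libraries the log2 change in proliferating against fresh cells (-3.10, limma adjusted p = 0.00631) was -3.86 or -1.95, and with a pseudocount of 8 it was -1.17 and not called (limma, adjusted p = 0.0510). Sln passed the filter only through its myotube libraries, which favours a rise there. The p for myotubes against fresh cells is therefore no independent support for that rise. Pvalb, the cytosolic calcium buffer of fast fibres (chromosome 15, 78191114 to 78206400), had 11, 23 and 20 counts in fresh, 1, 1 and 3 in proliferating and 327, 207 and 530 in myotube libraries, with no overlap between stages. The log2 change of Pvalb was 7.04 ± 0.47 in myotubes against proliferating cells (limma, adjusted p = 2.13e-06).

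The counter-ion channels TRIC-A and TRIC-B, which carry potassium into the store as calcium leaves, both had their highest levels in myotubes. Tmem38a, which encodes TRIC-A, had 181, 255 and 263 counts in fresh, 185, 788 and 703 in proliferating and 8862, 8134 and 10469 in myotube libraries. It was 19.4-fold higher in myotubes than in proliferating cells (log2 change 4.28 ± 0.45, with 3.61 without proliferating library 1 and 4.65 without library 2). In proliferating against fresh cells the libraries overlapped and the change was not called (1.02 ± 0.45, limma adjusted p = 0.0619), but it was without proliferating library 1 (1.69, limma adjusted p = 3.21e-05). Tmem38b, which encodes TRIC-B, was 6.96-fold higher in myotubes (5109 ± 693) than in proliferating cells (750 ± 209), and 1.81-fold higher in proliferating than in fresh cells (409 ± 93.2), with overlapping libraries. The share of Tmem38a in the level per kb of both was 50.4% in fresh, 53.3% in proliferating and 76.1% in myotube libraries.

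The sensors of store-operated entry moved in opposite directions when cells proliferated. Stim1, the main sensor of an empty store in muscle (chromosome 7, 102267806 to 102437319), had 965, 782 and 869 counts in fresh, 431, 467 and 421 in proliferating and 1415, 1396 and 1577 in myotube libraries. It was 1.98-fold lower in proliferating than in fresh cells (log2 change -0.98 ± 0.11, limma adjusted p = 1.49e-05) and 3.32-fold higher in myotubes than in proliferating cells (1.73 ± 0.11, limma adjusted p = 1.51e-06). Stim2, a related sensor (chromosome 5, 53998499 to 54121057), had 1275, 1507 and 1126 counts in fresh, 2498, 2780 and 2609 in proliferating and 2447, 2491 and 2444 in myotube libraries. It was 2.03-fold higher in proliferating than in fresh cells (1.02 ± 0.11, limma adjusted p = 1.14e-05). All myotube libraries lay just below the proliferating ones, a difference that was not called (-0.09 ± 0.11, limma adjusted p = 0.490) but was with totals without Gm26917 (-0.37, limma adjusted p = 0.0182). Stim1 made up 25.1% of the level per kb of both sensors in fresh, 7.65% in proliferating and 22.7% in myotube libraries, with overlap between myotube and fresh libraries.

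Orai1, the channel that the sensors open, had 194, 91 and 122 counts in fresh, 148, 212 and 198 in proliferating and 735, 651 and 761 in myotube libraries. It was 3.87-fold higher in myotubes than in proliferating cells (limma, adjusted p = 1.13e-04). Proliferating and fresh libraries overlapped (log2 change 0.51 ± 0.26, limma adjusted p = 0.0982), and without fresh library 1 the change was called (0.80, limma adjusted p = 0.00247).

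The channels that set the excitability of the fibre membrane were low before differentiation. Scn4a, the sodium channel of skeletal muscle, had 20, 8 and 15 counts in fresh, 19, 64 and 89 in proliferating and 711, 726 and 803 in myotube libraries. It was 15.3-fold higher in myotubes than in proliferating cells (log2 change 3.93 ± 0.51, with 3.29 without proliferating library 1 and 4.37 without library 3). The call in proliferating against fresh cells (1.76 ± 0.51, limma adjusted p = 0.0105, with 2.4 and 1.32 without the same libraries) came with 1 overlapping library, proliferating library 1. Clcn1, the chloride channel of muscle, had 4, 9 and 5 counts in fresh, 12, 21 and 13 in proliferating and 70, 71 and 86 in myotube libraries, and was 4.81-fold higher in myotubes than in proliferating cells. Its call in proliferating against fresh cells (log2 change 1.25 ± 0.39, limma adjusted p = 0.0143) was lost without proliferating library 2 (limma, adjusted p = 0.0613). Clcn1 values are uncertain, since Fam131b on the opposite strand shares 8.2% of its exon bases and had a higher mean over the libraries, 48.9 against 32.3.

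Set against their mean myotube level, the genes stood at very different points in proliferating cells. Jph2 lay at 62.7% to 88.4%, Asph at 60.3% to 66.7%, Jsrp1 at 31.0% to 45.8% and Ryr1 at 20.1% to 38.7% of that mean in the proliferating libraries. Cacna1s lay at 0.925% to 7.31%, Srl at 2.67% to 9.13% and Tmem38a at 2.02% to 8.61%. Trdn at 0.0622% to 0.549% and Casq1 at 0.0447% to 0.165% had the lowest ranges of the genes detected in all proliferating libraries.

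**Figure D5:**
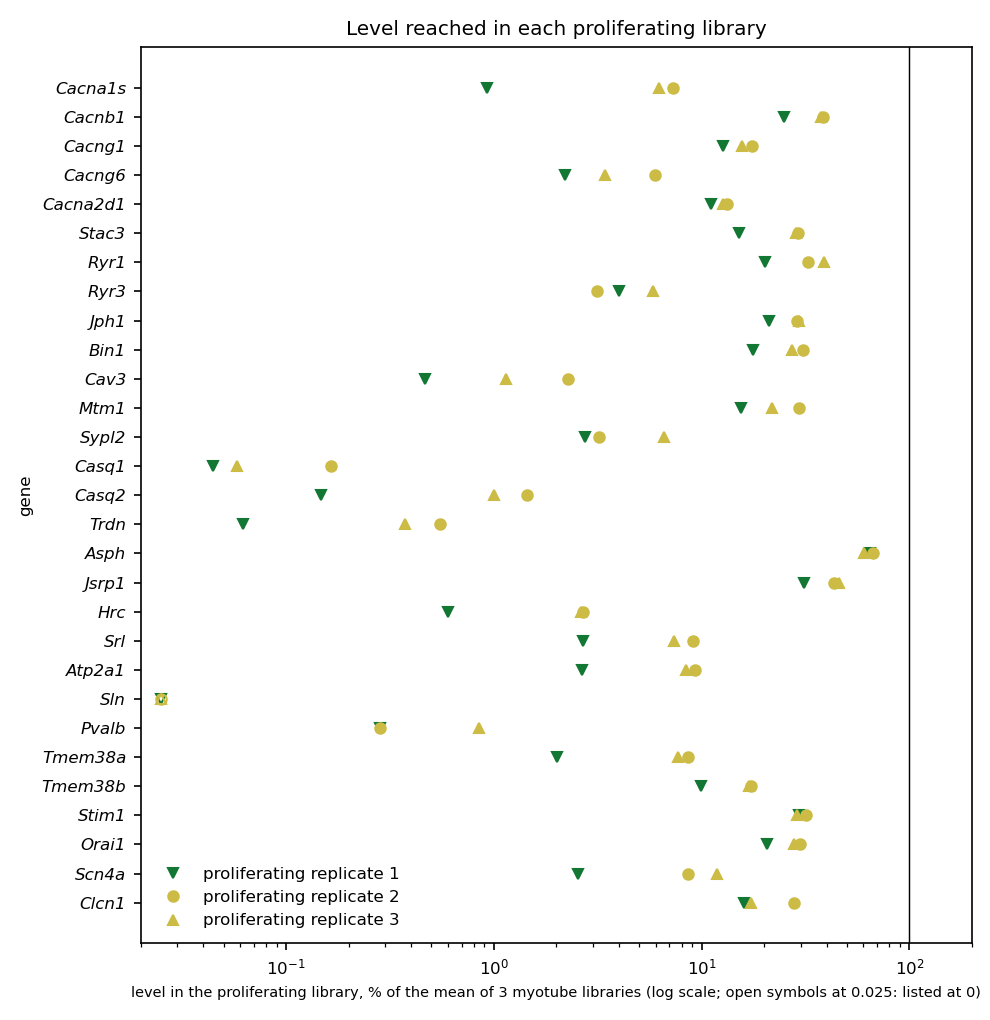
Level in each of the 3 proliferating libraries as a percent of the mean of the myotube libraries, on a log axis, for the 29 genes called higher in myotubes than in proliferating cells. Open symbols at the left edge stand for Sln, which was at 0. Asph stands closest to the line at 100%, Casq1 and Trdn lie among the lowest, and proliferating library 1 is left of the other libraries for most genes.

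Libraries of a stage differed in a way that most of the 36 genes shared. Proliferating library 1 was the lowest of its stage for 27 genes (75.0%, against 35.3% of all tested genes), with a median log2 difference of -0.60 to the mean of the other libraries, against 0.00 over all tested genes. It also had the lowest sum of 7 markers of differentiating muscle, 116684, against 221274 and 231860 in proliferating libraries 2 and 3, while its markers of dividing cells summed to 45858, between 49844 and 45175. Myotube library 2 was the lowest of its stage for 26 genes (72.2%, against 38.1%), with the lowest sum of differentiating muscle markers, 936322 against 988003 and 1047720, and the highest sum of dividing cell markers, 23642 against 17195 and 14189. Fresh library 1 was the highest of its stage for 19 genes (52.8%, against 39.7%) and the lowest for 12 (33.3%, against 41.9%). It had 43031 counts of differentiating muscle markers, against 30382 and 30426 in fresh libraries 2 and 3. Of these, 36699 were of Des, against 28357 and 27708. The part of these differences in the results for single genes was not tested.

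Other genes of the same pathways were counted by family, and the counts are read against the shares of all tested genes. These shares were 37.6% higher and 35.7% lower in proliferating against fresh cells, 28.6% and 25.5% in myotubes against proliferating cells, and 40.2% and 37.3% in myotubes against fresh cells. Of 18 further regulators of the release channel and scaffolds of the triad, 5 were called higher and 5 lower at the first of these steps and 10 and 5 at the second, where the share called lower is near that of all genes, and 13 and 5 in myotubes against fresh cells. Among them Dhrs7c, a store membrane protein, had 0, 0 and 2 counts in fresh, 0, 9 and 8 in proliferating and 2057, 1523 and 2115 in myotube libraries. Trim72, a membrane repair protein, averaged 8659 ± 914 in myotubes and 328 ± 218 in proliferating cells (SD, n = 3 each; log2 change 5.09 ± 0.57). Of 13 tested further subunits of voltage-gated calcium channels, 3 were higher and 8 lower in proliferating against fresh cells, a step at which 73.3% of all tested genes were called. The counts were 2 and 4 in myotubes against proliferating cells, and 3 and 7 in myotubes against fresh cells. Cacna1d, an L-type pore subunit, had 35, 22 and 27 counts in proliferating libraries, against 1414, 1568 and 1644 in fresh libraries (log2 change -5.76 ± 0.24, limma adjusted p = 2.00e-08). Cacna1g, a T-type pore subunit, averaged 5.00 ± 2.65 in proliferating and 296 ± 61.2 in fresh cells, and the beta subunit Cacnb2 29.7 ± 17.5 and 77.3 ± 3.21. The sums of fibroblast, leukocyte and endothelial markers were lower at the same step, though not every marker was, and the part of such transcripts in these falls was not tested.

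Proliferating against fresh cells had higher levels of 4 and lower levels of 8 of 12 further pumps, pump regulators and exchangers, where 37.6% of all tested genes were higher and 35.7% lower. In myotubes 4 were higher and 1 lower than in proliferating cells, and 4 and 7 than in fresh cells. Mrln, the gene of the pump inhibitor myoregulin, had 65, 66 and 63 counts in fresh, 0, 16 and 9 in proliferating and 303, 289 and 345 in myotube libraries. The sodium-calcium exchanger genes moved in opposite directions, with Slc8a2 at 2.33 ± 1.15 in proliferating and 208 ± 41 in fresh cells, and Slc8a1 at 115 ± 56.5 and 2.00 ± 3.46. Of 8 tested further genes of store-operated and TRP entry, 1 was higher and 6 lower in myotubes than in proliferating cells, against 28.6% and 25.5% of all tested genes. The counts were 2 and 4 in proliferating against fresh cells, and 1 and 5 in myotubes against fresh cells. Piezo1, a mechanically gated channel, averaged 2312 ± 210 in myotubes and 6733 ± 612 in proliferating cells. Orai2, a relative of Orai1, averaged 357 ± 34.7 in myotubes and 874 ± 207 in proliferating cells (log2 change -1.27 ± 0.18, limma adjusted p = 1.68e-04), where Orai1 was higher in myotubes. Trpc1, a cation channel, averaged 53.7 ± 8.14 and 89.0 ± 9.54 in the same groups.

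Of 8 genes of mitochondrial calcium uptake, 6 were higher and 1 lower in proliferating against fresh cells (37.6% and 35.7% of all tested genes), 4 and 1 in myotubes against proliferating cells (28.6% and 25.5%), and 6 and 0 in myotubes against fresh cells (40.2% and 37.3%). Micu2, a gatekeeper of the uniporter, averaged 4045 ± 202 in myotubes and 459 ± 56.4 in fresh cells, and Smdt1, its small essential subunit, 1141 ± 227 and 196 ± 56.1. Ccdc109b, a paralogue of the pore, averaged 67.3 ± 4.62 in proliferating and 10 ± 5.20 in fresh cells. Among 15 tested further calcium-binding proteins, 6 were higher and 0 lower in myotubes against proliferating cells, and 9 and 3 in myotubes against fresh cells. In proliferating cells 11 were higher and 4 lower than in fresh cells (37.6% and 35.7% of all tested genes), with S100a6 at 5308 ± 66.6 in proliferating and 693 ± 57.9 in fresh cells, and S100a4 at 216 ± 26.8 and 5.33 ± 6.81. Calb1 was listed at 0 in all proliferating libraries, against 15, 22 and 14 counts in fresh libraries.

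Among 18 tested genes of calcineurin, CaMKII and NFAT signalling, 5 were higher and 7 lower in proliferating against fresh cells (37.6% and 35.7% of all tested genes), 9 and 2 in myotubes against proliferating cells (28.6% and 25.5%), and 10 and 6 in myotubes against fresh cells (40.2% and 37.3%). Myoz2 and Myoz1, which tether calcineurin to the Z-disc, averaged 3562 ± 515 and 621 ± 239 in myotubes, against 14.7 ± 6.51 and 13.7 ± 8.62 in proliferating cells. Nfatc2, a transcription factor that calcineurin activates, had 11, 30 and 28 counts in proliferating libraries, against 1928, 3480 and 3191 in fresh libraries (log2 change -6.97 ± 0.37, limma adjusted p = 8.12e-08). At this step the sums of fibroblast, leukocyte and endothelial markers were also lower, and the part of such transcripts in this fall was not tested. Of 8 tested further sodium channel subunits, 2 were higher and 3 lower in proliferating against fresh cells, and 4 and 3 in myotubes against fresh cells. In myotubes against proliferating cells 4 were higher and 2 lower, where the share called lower is near the 25.5% of all tested genes. Scn3a, a pore subunit of embryonic tissue, was at 0 in all fresh libraries, had 1, 4 and 4 counts in proliferating libraries and had 487, 472 and 593 in myotube libraries. Scn3b, a beta subunit, averaged 392 ± 26.5 in myotubes and 6.33 ± 1.15 in proliferating cells, and Scn11a, a pore subunit known from sensory neurons, 1.33 ± 1.53 in proliferating and 66.7 ± 14.4 in fresh cells.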

How the data were processed

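RNA from 9 samples, 3 per stage, was sequenced with stranded libraries after ribosomal RNA depletion, per the labels' protocols. The submitters' processing notes name STAR 2.4.0a, featureCounts 1.4.5-p1 of Subread and the build mm10 (GRCm38). The deposited table holds score values, which are read counts that the authors made comparable between libraries and then rounded. The tool of that scaling and the strand setting are not stated. The stage of the Q columns, freshly isolated, follows by elimination.

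Values were analysed as log2(value + 1) without further scaling, in 1 limma 3.58.1 model (R 4.3.3) with a mean-variance trend over all 9 libraries, for genes that reached 10 in 3 libraries or more. The threshold was 0.05 for p adjusted over all tested genes (Benjamini-Hochberg). The test foreseen for unscaled counts could not be applied to scaled values. The procedure was tested on simulated data with 1 setting of the spread for all genes and changes in myotubes only. That test does not cover the wider spread of some genes here, such as Casq2 in proliferating libraries (SD 76.3% of the mean). Lengths, positions and overlaps came from GENCODE vM21, and promoters from RefSeq. Family shares used summed values per kb of exon and scipy 1.17.1 in Python 3.11.15. The spacing of low values put 1 read at 0.745 to 2.179 normalized counts, from which reads per library and the limit of 3 reads were taken. They cover counting error only.

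The 36 genes, the further gene lists, the markers and the alternatives were chosen with earlier results of these data known. All 36 genes are named, and of each further list up to 3 genes with the largest called changes. A gene that meets this rule is not reported here. Alternatives covered the pseudocount, the filter, the scaling, the trend, the libraries in the fit and a replicate block. Protein sequences were not used here.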

Additional observations from a re-analysis of the deposited data

How the results depend on the processing

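Of the log2 changes of the 36 genes under all alternatives, 2192 kept their direction and side of the threshold, 32 lost a call, 27 gained a call and 11 changed sign. The 11 were uncalled changes. Itpr3 in proliferating against fresh cells was 0.12 with totals without Gm26917, 0.04 without fresh library 1 and 0.03 without proliferating library 2, and -0.30 to 0.04 when single libraries were left out. Jsrp1 in the same comparison was -0.13 with quantile normalization and between -0.20 and -0.02 without fresh library 2 or 3 or proliferating library 2 or 3, with 0.48 at the other end, without fresh library 1 and proliferating library 1 together. Atp2a2 in myotubes against proliferating cells was -0.16 with totals without Gm26917 and -0.20 with quantile normalization, and Ryr3 in myotubes against fresh cells was 0.10 without fresh library 2 and -0.27 without fresh library 3. The causes were not tested.

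Leaving out single libraries, proliferating against fresh cells had 14 to 19 of the genes called higher and 11 to 12 lower, myotubes against proliferating cells 29 to 30 and 3 to 4, and myotubes against fresh cells 30 to 31 and 4. With totals without Gm26917, 5 genes were called lower in myotubes against proliferating cells, where 3 were as deposited. The largest loss was that of Trdn in proliferating against fresh cells, which was not called in 11 settings. Sln in the same comparison was not called with a pseudocount of 8 (-1.17, limma adjusted p = 0.0510). Ryr2 in myotubes against proliferating cells was called in 8 settings. Without division by length the share of Itpr2 was 23.2% in proliferating and 43.6% in myotube libraries, of Atp2a1 48.3% and of Casq2 59.2% in myotubes, and of Jph2 89.9% in proliferating and 75.5% in myotube libraries. On the same scale the share of Tmem38a was 36.8%, 39.6% and 64.2%, and that of Stim1 40.3%, 14.3% and 37.3%, in fresh, proliferating and myotube libraries.

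Libraries with the same replicate number did not deviate together, with correlations of -0.034 to 0.027, so the numbers were not taken as pairs. With the replicate block, 19 genes were higher and 12 lower in proliferating against fresh cells, 29 and 3 in myotubes against proliferating cells, and 31 and 4 in myotubes against fresh cells. The added call was Tmem38a in proliferating against fresh cells (limma, adjusted p = 0.0294).

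With 3 libraries a stage, exact tests of shares could not pass 0.05. Fresh library 1 had the fewest estimated reads, 12.0 M, and 1 read there was worth 2.179 normalized counts, so single fresh values below about 6.54 in that library are under the limit of 3 reads.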
